A study of Mus musculus with 8 samples.

Results

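The genes described here are 10 that mark cortical inhibitory interneurons or encode their peptides: Gad1, Gad2, Slc32a1, Pvalb, Sst, Vip, Npy, Cck, Lhx6 and Reln. They were chosen by name from a table of 54446 Ensembl gene identifiers, with earlier results of these data known. All 10 were among the 17636 genes with enough counts to be tested. The table comes from medial prefrontal cortex of mice, in 2 groups: 4 libraries whose titles say Ino80e overexpression, and 4 wild-type libraries. The design text says that adeno-associated virus was injected into this region to change the expression of a schizophrenia risk gene; Ino80e encodes one subunit of the chromatin remodelling complex INO80. The promoter and cell type of the virus, any control virus in the wild-type mice, and the strain, sex and age of either group were not given in the sources used here. Whether the libraries stem from different animals is not stated in the labels, and p-values therefore cover the spread among these libraries, part of which may be technical.

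Inhibitory interneurons release GABA, which Gad1 and Gad2 products make from glutamate and the Slc32a1 product loads into vesicles. In the cortex they fall into classes named after what they contain: parvalbumin cells fire fast and contact cell bodies, somatostatin cells contact dendrites, Vip cells act largely on other interneurons, and neurogliaform cells often hold reelin and neuropeptide Y. Lhx6 is a transcription factor of the parvalbumin and somatostatin lineages from the medial ganglionic eminence. Cck is also made by many cortical excitatory neurons, and Npy, Sst and Reln by several interneuron classes, so no single gene counts a single cell type. In bulk tissue, fewer cells of a type and less RNA per cell cannot be told apart.

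Library totals ran from 44762378 to 60490153 counts. Ino80e was raised in libraries 1 and 4 labelled overexpression, at 74.1 and 45.04 CPM (read counts relative to the library size after TMM scaling, the trimmed mean of M-values), and stood at 23.4 and 23.3 CPM in replicates 2 and 3, where wild type ranged from 19.5 to 25.5 CPM. Its log2 fold change was 0.91 (SE 0.42, edgeR adjusted p = 0.51). Ino80e overlaps the exons of the opposite-strand genes Doc2a and Hirip3 over 1253 bases, so its counts are uncertain where strand was not used in counting. By these counts 2 libraries go against their label. Higher and lower below therefore refer to the labels and not to a measured rise of Ino80e. The results are also given without those 2 libraries. The tissue expressed the markers of cortical excitatory neurons, with the vesicular glutamate transporter gene Slc17a7 at 2067 ± 107 CPM in the libraries labelled overexpression and 1961 ± 117 CPM in wild type (SD, n = 4 each).

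None of the 10 interneuron genes passed the test between the groups. Slc32a1, Lhx6, Sst and Npy stood higher in the libraries labelled overexpression, and Pvalb, Reln, Vip, Gad2, Gad1 and Cck lower, but their log2 fold changes ran only from -0.12 (Pvalb) to 0.14 (Slc32a1). By edgeR's quasi-likelihood test with Benjamini-Hochberg adjustment over all genes, 0 of 10 passed a threshold of 0.05, where 0.034% of all genes tested did, and 0 of 10 had an unadjusted p under 0.05, where 10.7% of all genes did. DESeq2 and limma-voom also called 0, each with 1 of the 10 at an unadjusted p under 0.05. The median log2 fold change of the 10 was -0.012, beside 0.0016 for all genes tested. Without replicates 2 and 3 of the group labelled overexpression 0 of 10 passed and 1 had an unadjusted p under 0.05, with log2 fold changes from -0.090 (Pvalb) to 0.23 (Slc32a1). The summed level of the 10 was 1180 to 1263 CPM in the libraries labelled overexpression and 1215 to 1257 CPM in wild type.

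**Figure D1:**
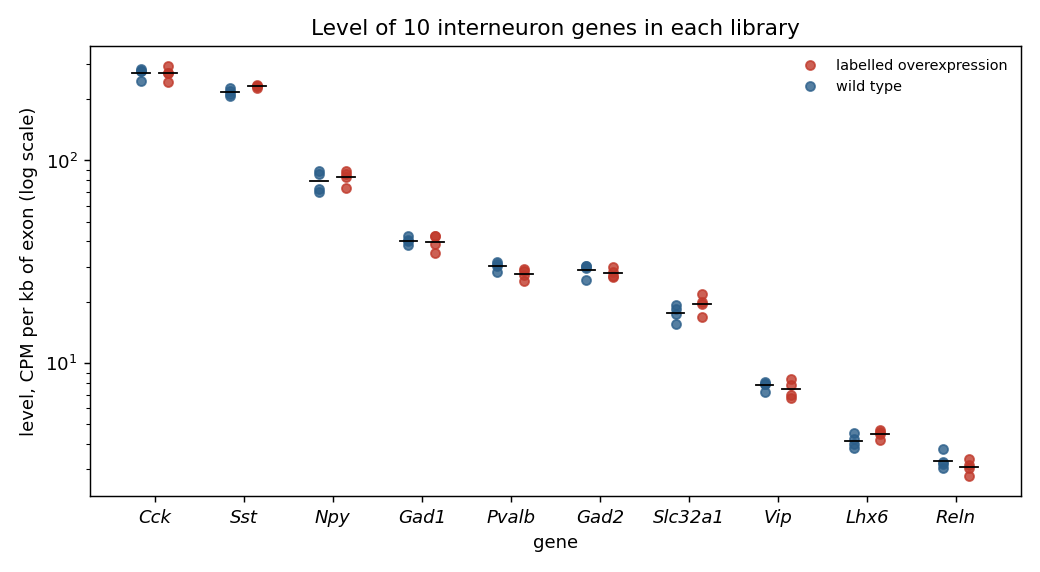
Level of each gene in CPM per kilobase of annotated exon (log axis) in each of the 4 libraries labelled overexpression (red) and 4 wild-type libraries (blue), with group means as bars. Genes are ordered by the wild-type mean, from Cck at 270.3 to Reln at 3.32, and the groups lie close together for every gene.

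Set per kilobase of exon, which allows levels of different genes to be compared, Cck and Sst led. Wild-type levels were 270.3 ± 17.0 CPM per kb for Cck, 217 ± 8.01 for Sst and 79.3 ± 9.42 for Npy (SD, n = 4). These 3 peptide genes stood above the enzyme genes Gad1 (40.2 ± 1.70) and Gad2 (28.9 ± 2.16), with Pvalb between them at 30.2 ± 1.31. Slc32a1 followed at 17.8 ± 1.66, then Vip at 7.79 ± 0.364, Lhx6 at 4.15 ± 0.300 and Reln at 3.32 ± 0.316. In both groups the ranges of Pvalb and Gad2 overlapped, and no other neighbours in this order did. The order depends on the length used: per kilobase of the longest annotated transcript, Gad1 (85.3 ± 3.61) came above Npy (79.3 ± 9.42) with overlapping ranges, and Reln (6.74 ± 0.641) above Lhx6 (5.73 ± 0.415), again overlapping. Which transcripts were present was not measured.

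Gad1 and Gad2 encode the paired glutamate decarboxylases, the enzymes of GABA synthesis. Gad1 (ENSMUSG00000070880, chromosome 2, 70553072 to 70602014, plus strand of GRCm38) stood at 298, 268, 325 and 324 CPM in replicates 1 to 4 labelled overexpression, and at 305, 309.9, 291 and 323 CPM in wild type. Replicate 2 of the first group was the lowest library of all, and replicates 3 and 4 were above the highest wild-type library, so the groups overlapped. The log2 fold change was -0.017 (SE 0.057, 95% interval -0.14 to 0.10), a ratio of 0.99 with an interval of 0.91 to 1.07 (edgeR adjusted p = 0.94). Gad2 (ENSMUSG00000026787, chromosome 2, 22622205 to 22693874, plus strand) stood at 159, 166, 157 and 175 CPM against 173, 178, 151 and 178 CPM. All 4 libraries labelled overexpression lay within the wild-type range, whose low end was replicate 3. Its log2 fold change was -0.052 (SE 0.056, interval -0.17 to 0.065, edgeR adjusted p = 0.77).

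Slc32a1 encodes the vesicular GABA transporter and had the highest fold change of the 10. Slc32a1 (ENSMUSG00000037771, chromosome 2, 158610767 to 158615748, plus strand) stood at 54.9, 47.6, 55.9 and 61.8 CPM in the libraries labelled overexpression and 51.9, 43.7, 49.2 and 54.6 CPM in wild type. Replicates 1, 3 and 4 exceeded every wild-type library and replicate 2 did not. The log2 fold change was 0.14 (SE 0.076, interval -0.015 to 0.30), a ratio of 1.11 with an interval of 0.99 to 1.23, and missed the threshold (edgeR adjusted p = 0.51). It overlaps the exons of the opposite-strand gene Gm14205 over 697 bases, so its counts are uncertain where strand was not used in counting. Without replicates 2 and 3 of the group labelled overexpression the log2 fold change was 0.23 (SE 0.084, edgeR adjusted p = 0.60), over 1.5 times the value with all libraries. Without replicate 4 labelled overexpression it was 0.085, and without wild-type replicate 2 it was 0.083.

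Lhx6, the lineage transcription factor, was the least abundant of the 10 in CPM. Lhx6 (ENSMUSG00000026890, chromosome 2, 36081953 to 36105408, minus strand) stood at 22.6, 21.5, 22.1 and 20.2 CPM against 19.2, 21.8, 20.3 and 18.5 CPM. Replicates 1 and 3 labelled overexpression lay above all wild-type libraries, and the groups overlapped. Its difference was 0.11 on the log2 scale (SE 0.080, interval -0.051 to 0.28, edgeR adjusted p = 0.61). It shares 104 exon bases with Gm27953 on the same strand.

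**Figure D2:**
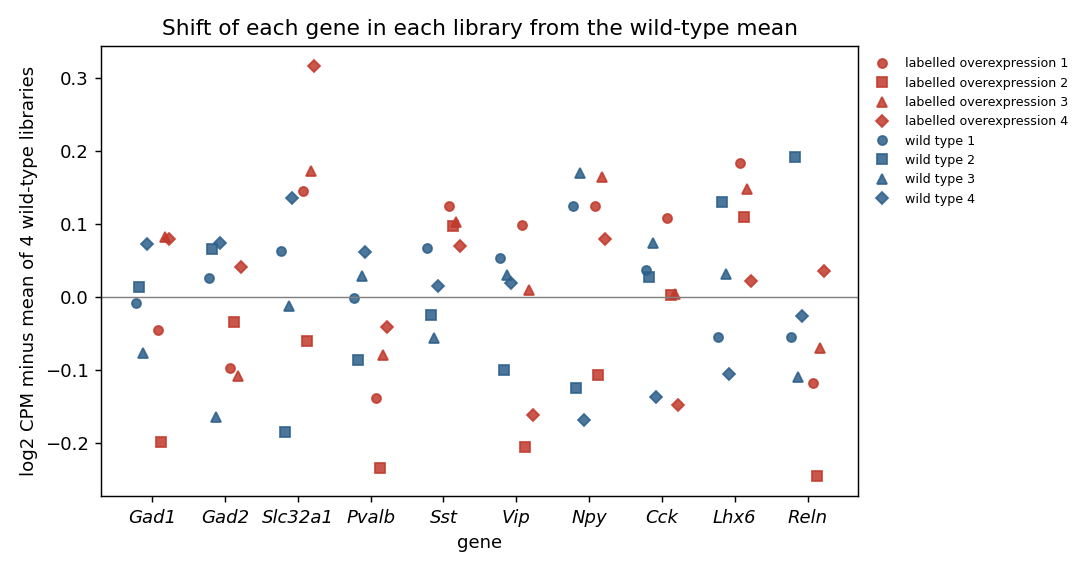
Each point is 1 library: log2 CPM of the gene minus the mean of the 4 wild-type libraries, with red for libraries labelled overexpression, blue for wild type and 1 marker shape per replicate number. Sst is the gene whose 4 red points all lie above the blue ones, and replicate 2 labelled overexpression (red squares) is lowest for Gad1, Pvalb, Vip and Reln.

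Pvalb encodes parvalbumin, the calcium-binding protein of fast-spiking basket and chandelier cells. Pvalb (ENSMUSG00000005716, chromosome 15, 78191114 to 78206400, minus strand) stood at 28.5, 26.7, 29.7 and 30.5 CPM in the libraries labelled overexpression and 31.3, 29.5, 31.99 and 32.7 CPM in wild type. Replicates 1 and 2 of the first group lay below every wild-type library, while 3 and 4 lay within the wild-type range. On the log2 scale the difference was -0.12 (SE 0.069, interval -0.27 to 0.021), a ratio of 0.92 with an interval of 0.83 to 1.01 (edgeR adjusted p = 0.54). A loss of Pvalb transcript beyond 0.83 times the wild-type level thus lay outside this interval, which compares the labelled groups. Without replicate 4 labelled overexpression the lower bound was -0.31 on the log2 scale.

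Sst encodes the precursor of somatostatin and was the single member whose groups did not overlap. Sst (ENSMUSG00000004366, chromosome 16, 23889573 to 23890958, minus strand) stood at 170.3, 167, 168 and 163.9 CPM in the libraries labelled overexpression and 163.5, 153, 150.2 and 158 CPM in wild type. Every library labelled overexpression was higher than every wild-type library, though the closest pair differed only as 163.9 from 163.5 CPM. Among all genes tested 5.84% had groups that did not overlap in either direction, so 1 of 10 is near that background. The log2 fold change was 0.098 (SE 0.048, interval -0.0014 to 0.20), a ratio of 1.07, and missed the threshold (edgeR adjusted p = 0.47). The permutation test of its log2 CPM (exact, two-sided) gave p = 0.0286, the smallest that 4 against 4 libraries allow, and 0.29 after Benjamini-Hochberg adjustment over the 10 genes.

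Transcription of Sst and Vip is known for its response to cyclic AMP through the transcription factor CREB, and their promoter windows are shown because they were the members that held the letters of that element. The windows are 300 bases from RefSeq on GRCm38.p6, 250 before to 50 after the annotated start, at chr16:23890795-23891094 (minus strand) for Sst and chr10:5638968-5639267 (plus strand) for Vip, and capitals mark the match.
Sst: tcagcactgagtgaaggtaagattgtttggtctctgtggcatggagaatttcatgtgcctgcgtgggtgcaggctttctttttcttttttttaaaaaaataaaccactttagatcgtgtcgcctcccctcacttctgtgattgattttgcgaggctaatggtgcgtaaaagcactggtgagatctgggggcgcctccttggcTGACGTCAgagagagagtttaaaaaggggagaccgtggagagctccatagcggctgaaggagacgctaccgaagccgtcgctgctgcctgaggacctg
Vip: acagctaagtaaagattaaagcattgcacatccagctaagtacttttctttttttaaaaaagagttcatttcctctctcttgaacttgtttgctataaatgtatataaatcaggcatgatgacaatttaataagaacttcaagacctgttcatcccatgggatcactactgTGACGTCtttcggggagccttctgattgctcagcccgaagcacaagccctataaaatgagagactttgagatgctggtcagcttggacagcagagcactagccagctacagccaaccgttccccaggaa
The search was for TGACGTCA and for the shorter TGACGTC, on both strands, and every match of the first is also one of the second. The Sst window held TGACGTCA, beginning 48 bases before the start, and the Vip window held TGACGTC, beginning 79 bases before it. Of 13 windows of the 10 genes, no other held either. Among all 32851 windows 1.79% held TGACGTCA and 3.21% TGACGTC. Genes with TGACGTCA, a list formed after earlier results were known, numbered 416 among those tested. Of these 1 passed as lower and none as higher, where 4 of all 17636 genes tested passed as lower and 2 as higher. The median log2 fold change of the 416 was -0.012, beside 0.0016 for all genes. A match is a description of the letters, and binding was not measured.

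Vip encodes vasoactive intestinal peptide. Vip (ENSMUSG00000019772, chromosome 10, 5639218 to 5647617, plus strand) stood at 28.3, 23.0, 26.6 and 23.7 CPM against 27.5, 24.7, 27.0 and 26.8 CPM in wild type. Its libraries labelled overexpression lay on both sides of the wild-type range, with replicate 1 above and replicates 2 and 4 below, and the log2 fold change was -0.060 (SE 0.079, interval -0.22 to 0.10, edgeR adjusted p = 0.81). The coefficient of variation was 9.95% in the group labelled overexpression and 4.67% in wild type.

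Npy encodes neuropeptide Y, found in neurogliaform cells and in a subset of somatostatin cells. Npy (ENSMUSG00000029819, chromosome 6, 49822710 to 49829507, plus strand) stood at 48.7, 41.5, 50.1 and 47.2 CPM against 48.7, 40.9, 50.2 and 39.7 CPM. The ranges of both groups nearly coincided. Its log2 fold change was 0.062 (SE 0.078, interval -0.10 to 0.22, edgeR adjusted p = 0.80), and its wild-type coefficient of variation, 11.9%, was the widest of the 10.

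Cck encodes cholecystokinin, the peptide of a basket cell class and of many excitatory neurons. Cck (ENSMUSG00000032532, chromosome 9, 121489824 to 121495694, minus strand) stood at 379.6, 353, 353 and 318 CPM against 361, 359, 370.5 and 320.2 CPM. Replicate 4 was the lowest library in each group, and the ranges were nearly the same. Its difference of -0.0076 on the log2 scale was the smallest of the 10 (SE 0.056, interval -0.12 to 0.11, edgeR adjusted p = 0.97).

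Reln encodes reelin, a secreted glycoprotein that guides neuron placement in development and acts on synapses in the adult. Reln (ENSMUSG00000042453, chromosome 5, 21884454 to 22344702, minus strand) stood at 72.4, 66.3, 74.9 and 80.5 CPM in the libraries labelled overexpression and 75.6, 89.8, 72.8 and 77.2 CPM in wild type. Replicates 1 and 2 of the first group were below all wild-type libraries, and wild-type replicate 2 was the highest of the 8. The log2 fold change was -0.10 (SE 0.067, interval -0.24 to 0.039, edgeR adjusted p = 0.59); without wild-type replicate 2 it was -0.036 (edgeR adjusted p = 0.91), and without replicate 2 labelled overexpression -0.054. Its exons share 246 bases with Gm10475 on the opposite strand.

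**Figure D3:**
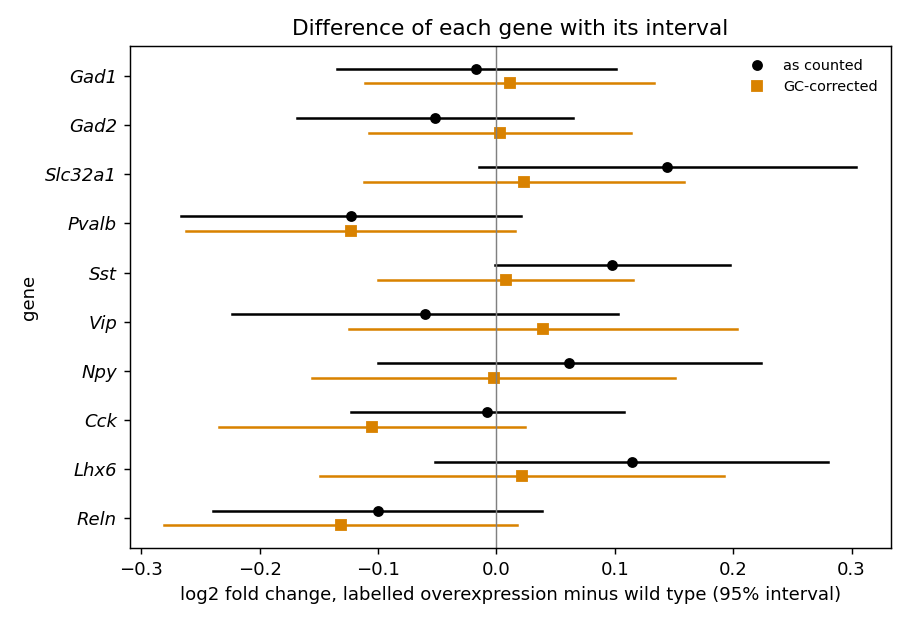
Log2 fold change of each gene, libraries labelled overexpression minus wild type, with its 95% interval, as counted (black circles) and after a correction for transcript GC content (orange squares). Every interval includes 0 in both versions, and Slc32a1 goes from 0.14 to 0.023 and Sst from 0.098 to 0.0078.

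The fold changes of the interneuron genes ran with the GC content of their transcripts. Slc32a1, at 61.9% GC, was highest, Lhx6 (56.2%), Sst (56.0%) and Npy (53.7%) lay above 0, and Gad1 (47.3%), Gad2 (44.1%) and Vip (38.7%) lay below. Pvalb (49.3%), Reln (51.1%) and Cck (56.9%) lay below 0 and under the trend. Over the 10 genes fold change and GC content had a rank correlation of 0.75, a description of genes from the same libraries. Over 11330 genes of at least 5 CPM with a GC value it was 0.64, and the median log2 fold change went from -0.11 for genes of 35% to 40% GC to 0.11 for those of 60% to 65%.

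After a correction of each library along GC content, the differences of Slc32a1, Sst and Lhx6 came close to 0, and those of Pvalb, Reln and Cck were the ones farthest from it. The correction takes out the average group difference at each GC content, whatever its source. A gene near the all-gene trend at its GC content therefore comes close to 0 by construction. The corrected log2 fold changes were 0.023 (SE 0.066) for Slc32a1, 0.0078 (SE 0.053) for Sst and 0.022 (SE 0.083) for Lhx6. They were -0.12 (SE 0.068) for Pvalb, -0.13 (SE 0.071) for Reln and -0.11 (SE 0.063) for Cck, each with an edgeR adjusted p of 0.97. The Sst groups overlapped after the correction. The Pvalb groups no longer did, with the highest library labelled overexpression at -0.065 and the lowest wild-type library also at -0.065 from the wild-type mean on the log2 scale, a gap below this rounding. The share of all genes whose groups did not overlap after the correction was not computed. Gad1, Gad2 and Vip changed sign to 0.011, 0.0029 and 0.039, and Npy to -0.0022. None passed.

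**Figure D4:**
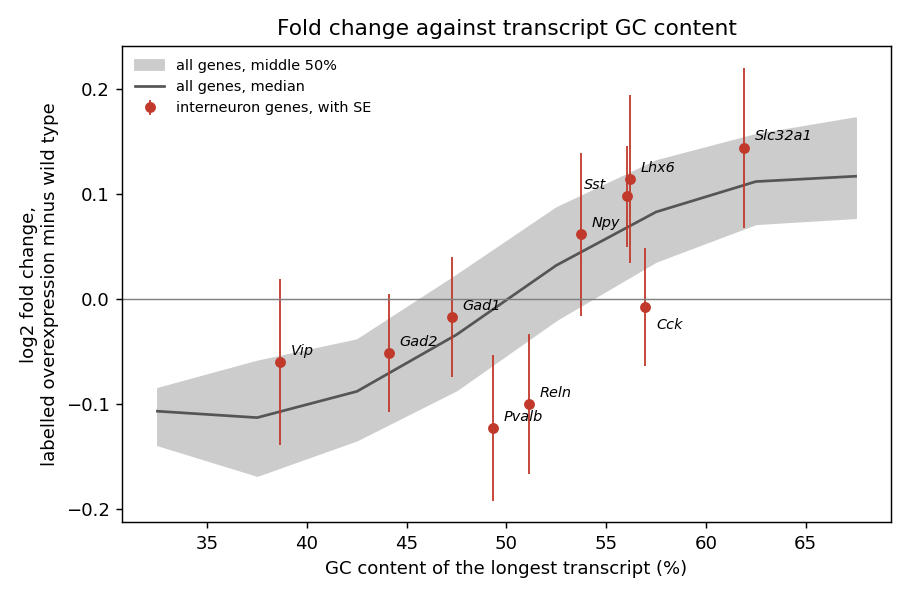
Log2 fold change (libraries labelled overexpression minus wild type) against the GC content of the longest transcript, with the 10 genes as points with SE and the median and middle 50% of all genes of at least 5 CPM in bins of 5 points of GC. Most of the 10 lie within the grey band, and Pvalb, Reln and Cck lie below it.

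Ratios of raw counts within a library need no scaling between libraries. Of the 45 ratios among the 10 genes, 4 did not overlap between the groups: Gad1 to Slc32a1, Slc32a1 to Pvalb, Slc32a1 to Reln, and Pvalb to Sst. Slc32a1 and Pvalb recur among them, so the 4 are not separate results. The share of such ratios over all genes was not computed. The ratio of Slc32a1 to Pvalb was 1.91 ± 0.1004 in the libraries labelled overexpression and 1.59 ± 0.0919 in wild type (SD, n = 4 each), and that of Pvalb to Sst was 0.173 ± 0.0114 and 0.201 ± 0.0108. Each of the 4 had an exact two-sided permutation p of 0.0286, the smallest possible, and 0.32 after Benjamini-Hochberg adjustment over the 45 ratios, so none passed. Each of these 4 ratios pairs a transcript of at least 56.0% GC with one of at most 51.1%. These limits are the GC contents of Sst and Reln, taken from the 4 ratios themselves, so all 4 meet them by construction. Of the 45 ratios 20 make such a pair, and the other 16 of these overlapped. The part of GC content in the ratios was not tested.

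Pattern likeness was taken as the Pearson correlation of log2 CPM over the 8 libraries after subtracting each group's mean, among 11330 other genes of at least 5 CPM. The gene most like Sst was Sypl (r = 0.98), most like Pvalb was Hemk1 (r = 0.97), and most like Slc32a1 was Rnf31 (r = 0.97). Gad1 was most like Zbtb43 (r = 0.97), Gad2 most like the serotonin receptor gene Htr1b (r = 0.98), Npy most like Xpa (r = 0.99) and Reln most like the calcium pump gene Atp2b1 (r = 0.98). Vip was most like Zkscan17 (r = 0.98), Cck most like Fgfrl1 (r = 0.98) and Lhx6 most like Etl4 (r = 0.99). Each is the highest of 11330 correlations over the same 8 libraries, and none of these 10 names is another interneuron gene of the lists used here.

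Genes that handle GABA outside the 3 core members did not pass either: of 10 tested, such as transporters, breakdown enzymes and inhibitory synapse scaffolds, 0 passed in either direction, and the median log2 fold change was -0.024. The lowest p belonged to Gphn, which encodes the inhibitory scaffold gephyrin (58.7 ± 3.07 against 64.4 ± 3.50 CPM, log2 -0.13, SE 0.057, edgeR adjusted p = 0.41). Slc12a2, a chloride importer gene, stood at log2 -0.14 (SE 0.069), and at -0.077 without replicate 1 labelled overexpression and -0.078 without wild-type replicate 4. Nlgn2, the neuroligin gene of inhibitory synapses, stood at 0.096 (SE 0.049). After the GC correction Gphn stood at -0.12 (SE 0.058), Slc12a2 at -0.084 and Nlgn2 at -0.025. Of 20 interneuron transcription factor genes 0 passed (median 0.039), with Tox2 at log2 0.18 (SE 0.074) and Zeb2 at -0.12 (SE 0.056), which became 0.086 and -0.035 after the GC correction. Zeb2 is also expressed by other cells of the brain.

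The class lists were equally without calls. Of 15 parvalbumin-class genes 0 passed (median log2 0.015); the muscle-type cytochrome oxidase gene Cox6a2 stood at 4.10 ± 0.752 against 3.20 ± 0.273 CPM (log2 0.36, SE 0.18), the neuregulin receptor gene Erbb4 at log2 -0.14 (SE 0.076) and the tachykinin precursor gene Tac1 at 0.20 (SE 0.18). Erbb4 was -0.055 without wild-type replicate 2 and -0.057 after the GC correction, where Cox6a2 stood at 0.31 and Tac1 at 0.26. Tac1 ran from 0.055 without wild-type replicate 3 to 0.32 without wild-type replicate 1, and was 0.31 and 0.12 without replicates 1 and 4 labelled overexpression in turn. Of 15 somatostatin-class genes 0 passed (median -0.010), and 3 had an unadjusted p under 0.05 by edgeR, with differing signs. Such a p-value was held by 10.7% of all genes tested. In the other related lists such genes numbered from 0 of 15 (parvalbumin-class) to 4 of 20 (peptide precursors and processing). Calbindin gene Calb1 stood at 97.6 ± 9.65 against 115.6 ± 10.9 CPM (log2 -0.24, SE 0.074, edgeR adjusted p = 0.31), the neurexophilin gene Nxph1 at log2 -0.19 (SE 0.065) and the corticotropin-releasing hormone binding protein gene Crhbp at 21.6 ± 1.28 against 18.4 ± 0.945 CPM (log2 0.23, SE 0.080, edgeR adjusted p = 0.34). Calb1 is 36.8% GC and went to log2 -0.12 (SE 0.066) after the GC correction, while Crhbp, at 49.0% GC, stayed at 0.23 (SE 0.082). The corrected value of Nxph1 was -0.16 (SE 0.065). With no filter on low counts Calb1 passed (log2 -0.24, edgeR adjusted p = 0.015); it is also expressed by excitatory neurons of upper layers.

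Vip and Cck basket-class genes gave 0 of 15 (median log2 0.016), with Synpr at log2 -0.17 (SE 0.078), the growth factor gene Igf1 at -0.26 (SE 0.12) and the tachykinin gene Tac2 at 0.33 (SE 0.18). After the GC correction Synpr stood at -0.070, Igf1 at -0.15 and Tac2 at 0.28. Without replicate 4 labelled overexpression Synpr stood at -0.096. Lamp5 and neurogliaform-class genes gave 0 of 12, with a median of -0.10 and 8 of 12 below 0, as were 8731 of all 17636 genes tested. Among the 12 the calcium channel subunit gene Cacna2d1 stood at log2 -0.20 (SE 0.084), Nxph4 at 0.39 (SE 0.20) and the GABA-A receptor delta subunit gene Gabrd at 0.12 (SE 0.067). Cacna2d1 was -0.12 without wild-type replicate 2, and Gabrd 0.19 without replicate 2 labelled overexpression and 0.070 without replicate 3. After the GC correction Cacna2d1 stood at -0.12, Nxph4 at 0.27 and Gabrd at 0.047. The corrected medians were -0.051 for this list, -0.052 for the parvalbumin-class genes, -0.036 for the somatostatin-class genes and -0.015 for the Vip and Cck basket-class genes, beside -0.012 for all genes.

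**Figure D5:**
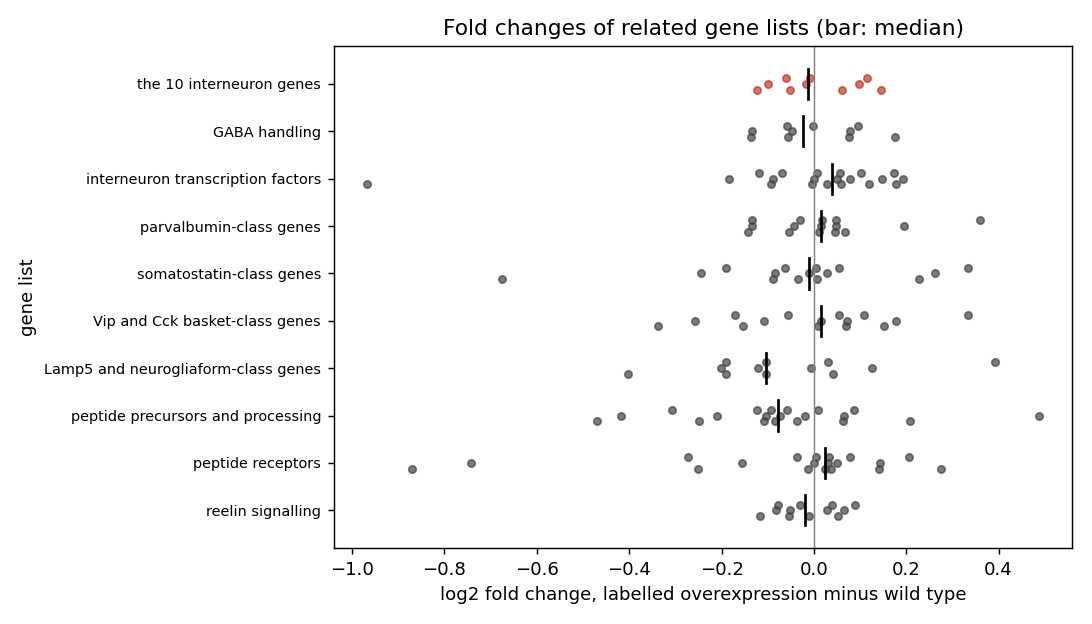
Log2 fold change (libraries labelled overexpression minus wild type) of every tested gene in the 10 interneuron genes (red) and in each related list (grey), with the median as a bar. No point passed the test, and the widest values belong to genes of low counts.

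Peptide precursors and processing genes gave 0 of 20 past the threshold, with 14 of 20 below 0. Their median log2 fold change was -0.078, and -0.093 after the GC correction. For all 17636 genes tested 8731 lay below 0, and the medians were 0.0016 and -0.012. The prohormone convertase gene Pcsk1 stood at 45.4 ± 4.12 against 52.6 ± 2.86 CPM (log2 -0.21, SE 0.066, edgeR adjusted p = 0.31). The gene of its inhibitor proSAAS, Pcsk1n, stood at 383 ± 27.3 against 331 ± 16.9 CPM (log2 0.21, SE 0.054, edgeR adjusted p = 0.26). Pcsk1n passed in DESeq2 (log2 0.21, adjusted p = 0.0499) and in edgeR with no low-count filter (adjusted p = 0.024). Their GC contents, 40.6% and 57.3%, lie on opposite sides of the trend, and after the GC correction they stood at -0.12 (SE 0.065) and 0.11 (SE 0.056). Adcyap1, which encodes the Vip relative PACAP, stood at log2 -0.25 (SE 0.086) and at -0.18 (SE 0.081) after the correction.

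Of 21 peptide receptor genes 19 were tested, Sstr5 and Cckar having too few counts, and 0 passed (median log2 0.024). The somatostatin receptor gene Sstr1 stood at 23.3 ± 1.16 against 19.3 ± 1.26 CPM with groups that did not overlap, between a wild-type maximum of 20.4 CPM and a minimum of 22.4 CPM in the libraries labelled overexpression (log2 0.27, SE 0.079, edgeR adjusted p = 0.31). Among all genes tested 5.84% had groups that did not overlap. Those of other genes named here, such as Calb1, Nxph1 and Pcsk1n, did not overlap either. Sstr1 is 58.7% GC, and the corrected value was 0.16 (SE 0.080). The Npy receptor gene Npy1r stood at log2 -0.16 (SE 0.075), and the corticotropin-releasing hormone receptor gene Crhr2 at -0.87 (SE 0.45), with 0.560 ± 0.0583 against 1.02 ± 0.839 CPM, so that only the wild-type mean reached 1 CPM. Without wild-type replicate 4, the library with the most choroid plexus marker counts, Crhr2 stood at -0.14. After the GC correction Npy1r stood at -0.094 and Crhr2, with all libraries, at -0.95. Of 12 reelin signalling genes 0 passed (median -0.020). The reelin receptor gene Vldlr stood at log2 -0.12 (SE 0.051), the kinase gene Src at 0.088 (SE 0.053) and Pafah1b1 at -0.078 (SE 0.049). After the GC correction they stood at -0.060, -0.025 and 0.0078. Src was 0.056 without replicate 3 labelled overexpression, and Pafah1b1 -0.042 without wild-type replicate 2.

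Markers of other cells varied between libraries. Beside the counts of signs that follow, 8905 of all 17636 genes tested lay above 0 and 8731 below. Striatal projection neurons are themselves GABAergic, and 11 of 12 of their markers lay above 0 (median log2 0.21, 0 passed); their summed level was 293, 455, 466 and 558 CPM in the libraries labelled overexpression and 426, 370.2, 288 and 481 CPM in wild type, so the groups overlapped. Choroid plexus markers (all 8 of 8 below 0, 0 passed) summed to 1136 CPM in wild-type replicate 4 and to 9.35 to 111 CPM in the other libraries. Microglia markers (5 of 8 above 0, 0 passed) summed to 395 to 496 CPM against 381 to 431 CPM. By edgeR 3 of these 8 had an unadjusted p under 0.05, all higher, where 10.7% of all genes tested did. So did 1 choroid plexus marker, as lower, and 0 striatal markers. Of these 3 lists only Isl1, a striatal marker, was at 0 in any library. The part of these cells in the values of the interneuron genes was not tested.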

How the data were processed

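Poly(A) RNA of mouse medial prefrontal cortex was sequenced as strand-specific libraries, per the labels' protocols. The deposited table holds raw read counts made by the authors, 1 column per library. Per the submitters' processing notes the tools included Trimmomatic 0.39, STAR 2.7.10 and featureCounts 2.0.3, with mm10 and GRCm38 as builds; strand setting, annotation and treatment of multiply mapped reads were not given in the sources used here. Groups and replicate numbers came from the titles. No library was a copy of another (lowest chi-square per degree of freedom between libraries 9.53, about 1 under sampling noise).

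Symbols, coordinates, exon lengths and GC content of the longest transcript came from GENCODE M21 (GRCm38), which matched 54409 of 54446 identifiers. Genes were filtered with filterByExpr, scaled by TMM and tested with edgeR 4.0.16 in R 4.3.3 (robust quasi-likelihood F test, Benjamini-Hochberg threshold 0.05); the common biological coefficient of variation was 12.9%. Intervals are 95%, from the same fit. Permutation tests used log2 CPM with a prior count of 2, or log2 count ratios, over 70 arrangements. The GC correction takes each gene's log2 CPM minus its mean over the 8 libraries of both groups. In each library these deviations are fitted along GC content with a natural spline (5 degrees of freedom). The fitted values enter the edgeR fit as an offset. DESeq2 1.42.0, limma-voom (limma 3.58.1), other scalings and filters, the replicate number as a block, and leaving out libraries were the alternatives. The edgeR script was tested on simulated data. Members, lists and alternatives were chosen with earlier results of these data known; the count ratios and the promoter letters were added after seeing the data. The text names all 10 members, Ino80e, the 3 genes of at least 1 CPM with the lowest p in each related list (none passed; 1 such gene is not reported here), and the gene most like each member. Slc17a7, Isl1, Sstr5 and Cckar were named after their values were seen.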

Additional observations from a re-analysis of the deposited data

How the results depend on the processing

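None of the 10 genes passed the threshold under any of the alternatives run, so the count of members called was 0 throughout, and it was 0 at an adjusted p under 0.1. The number of genes called over all genes, 6, was less stable: 83 with no low-count filter, 28 with DESeq2, 1 with limma-voom, 2 without robust estimation, 1 without replicates 2 and 3 labelled overexpression, and from 1 to 8 when a single library was left out; the cause was not tested. With no low-count filter 1 somatostatin-class gene (Calb1) and 1 peptide processing gene (Pcsk1n) passed, and with DESeq2 1 peptide processing gene (Pcsk1n); the other related lists had 0 under every alternative.

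Slc32a1, Pvalb, Sst, Lhx6 and Reln kept their sign under all 19 alternative fits. With the GC correction Gad1 (0.011), Gad2 (0.0029), Vip (0.039), Npy (-0.0022), Nlgn2 (-0.025), Src (-0.025) and Pafah1b1 (0.0078) changed sign. They also did with the replicate block and GC correction together: Gad1 0.0068, Gad2 0.0041, Vip 0.037, Npy -0.00012, Nlgn2 -0.022, Src -0.024 and Pafah1b1 0.0082. Leaving out single libraries moved Gad1 between -0.052 and 0.039, Cck between -0.051 and 0.037, Gad2 between -0.10 and -0.028, Vip between -0.12 and -0.015 and Npy between 0.0070 and 0.12, and without replicates 2 and 3 labelled overexpression Gad1 was 0.018. Scaling by RLE or upper quartile moved the median of all genes by less than 0.01 on the log2 scale and changed no sign.

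With the replicate block 1 gene was called over all genes and 0 members. The numbers did not pair the libraries: same-numbered libraries had correlations of -0.025, -0.071, 0.077 and 0.033, and 1 of 8 libraries correlated best with its own number.

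The intervals limit what these 4 against 4 libraries can show: for the 10 genes in the edgeR fit of all 8 libraries as counted they reach from -0.27 to 0.30 on the log2 scale. Other edgeR fits gave wider ones, down to -0.28 (Reln) with the GC correction and -0.31 (Reln) with the replicate block and GC correction. They also reached down to -0.31 (Pvalb) without replicate 4 labelled overexpression, and up to 0.40 (Slc32a1) without replicates 2 and 3 labelled overexpression.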
